A study of Mus musculus with 12 samples.

Results

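The transcripts examined encode the nuclear subunits of oxidative phosphorylation, the 5 protein complexes of the inner mitochondrial membrane. They were chosen by symbol (*Ndufa*, *Ndufb*, *Ndufc*, *Ndufs* and *Ndufv* for complex I, *Sdha* to *Sdhd* for complex II, *Uqcr* for complex III, *Cox4* to *Cox8* for complex IV and *Atp5* for complex V), without symbols that hold af, -ps or -rs, which mark assembly factors and pseudogenes. The rule places genes in a complex by symbol alone, which does not settle of which complex each product is a part. For example, it keeps 2 *Atp5* genes whose products are not structural subunits of complex V. These are *Atp5s* (coupling factor B) and *Atp5sl* (a factor in the assembly of complex I). Of 84 matching genes among the 39017 in the count table, 81 had a mean of 10 or more counts over the 12 mice: 37 of complex I, 4 of complex II, 8 of complex III, 15 of complex IV and 17 of complex V. Whole adrenals of female mice at 10 to 11 weeks of age, on a mixed sv129 and C57Bl/6 background, gave the RNA, with 6 controls (Ctrl) and 6 βCat-GOF animals. Ctrl mice carried *AS*-Cre on 1 allele, and βCat-GOF mice carried *AS*-Cre together with 1 *Ctnnb1* allele whose exon 3 lies between loxP sites. Both groups therefore carry Cre, which is expressed from the aldosterone synthase (*Cyp11b2*) locus and is active in cells of the zona glomerulosa (zG). In βCat-GOF mice it removes exon 3 and so stabilizes β-catenin in cells that expressed Cre and in their descendants, whereas the RNA came from the whole gland. A lower count can therefore come from fewer cells of a type or from less RNA per cell, and these cannot be told apart.

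Complex I oxidizes NADH and complex II oxidizes succinate, and both pass the electrons to ubiquinone. Complex III hands them to cytochrome c, complex IV reduces oxygen, and complex V (ATP synthase) uses the proton gradient built by complexes I, III and IV to make ATP. In the adrenal cortex the same membrane also holds the first and last enzymes of steroid synthesis, which draw electrons from NADPH rather than from these complexes.

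Between 14090378 and 25625494 reads per Ctrl mouse and between 13484675 and 24951480 per βCat-GOF mouse were counted on genes, and the totals did not separate the groups (exact permutation test, two-sided, p = 0.777). Every Ctrl mouse has a label that begins with 1 number, while 5 βCat-GOF labels begin with a different one, and the genotype cannot be told apart from anything that goes with it. Of the zG markers, 4 of 8 (*Agtr1a*, *Agtr1b*, *Dab2* and *Vsnl1*) were higher in βCat-GOF adrenals and none was lower, and of the macrophage markers 3 of 5 were lower (*Itgax*, *Adgre1* and *Mrc1*; edgeR's quasi-likelihood test, adjusted p under 0.05). The log2 fold change was above 0 for 7 of the 8 zG markers, but for *Cyp11b2* it was -0.18 (edgeR adjusted p = 0.830). Summed zG markers ranged from 1342 to 2082 CPM in Ctrl and from 1632 to 3680 CPM in βCat-GOF adrenals. The 6 striated muscle genes did not exceed 1.78 CPM in sum in any mouse. Of 4 markers of the zona fasciculata (zF) 1 was higher (*Akr1b7*), and 0 passed of 2 for the X-zone, 6 for capsule and stroma, 4 for endothelium, 5 for adipocytes and 5 for red cells. The part of these cell types in the values below was not tested.

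No subunit gene differed between the groups at an adjusted p under 0.05. In edgeR's quasi-likelihood test, 0 of the 81 genes were higher and 0 were lower in βCat-GOF adrenals, against 2.09% and 1.47% of the 14953 genes tested (3.56% in either direction). None passed the cut-offs of the study (a base mean above 100, an adjusted p under 0.05 and more than a 1.4-fold change), which 2.30% of all genes passed. At an unadjusted p under 0.05 there were 4 members (*Ndufs5*, *Ndufa4l2*, *Sdhc* and *Cox7a2l*), where 20.3% of all genes tested reached that level. DESeq2 called 1 member higher (*Sdhc*) and 1 lower (*Ndufa4l2*), against 7.57% of the genes it tested in either direction.

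The intervals of most members left little room for a change of the size that the study called. The 95% interval of the log2 fold change lay inside a fold of 1.4 in either direction (0.485 on the log2 scale) for 69 of the 81 genes, against 48.2% of all genes tested. All genes include many of low count. Of 9306 other genes in the CPM range that holds most members, 6405 had such an interval. The 69 members were 33 of 37 genes of complex I, all 4 of complex II, all 8 of complex III, 9 of 15 of complex IV and 15 of 17 of complex V. The 12 genes whose intervals reached beyond a fold of 1.4 were *Ndufs5*, *Ndufa4l2*, *Ndufc2* and *Ndufc1* of complex I, *Cox4i2*, *Cox7a1*, *Cox6c*, *Cox7c*, *Cox6b2* and *Cox8b* of complex IV, and *Atp5l* and *Atp5d* of complex V. Not all of these intervals were wide, as that of *Ndufc1* ran from -0.49 to 0.05 and that of *Ndufb4*, inside the fold, from -0.32 to 0.40. The intervals are those of single genes and were not widened for their number.

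**Figure D1:**
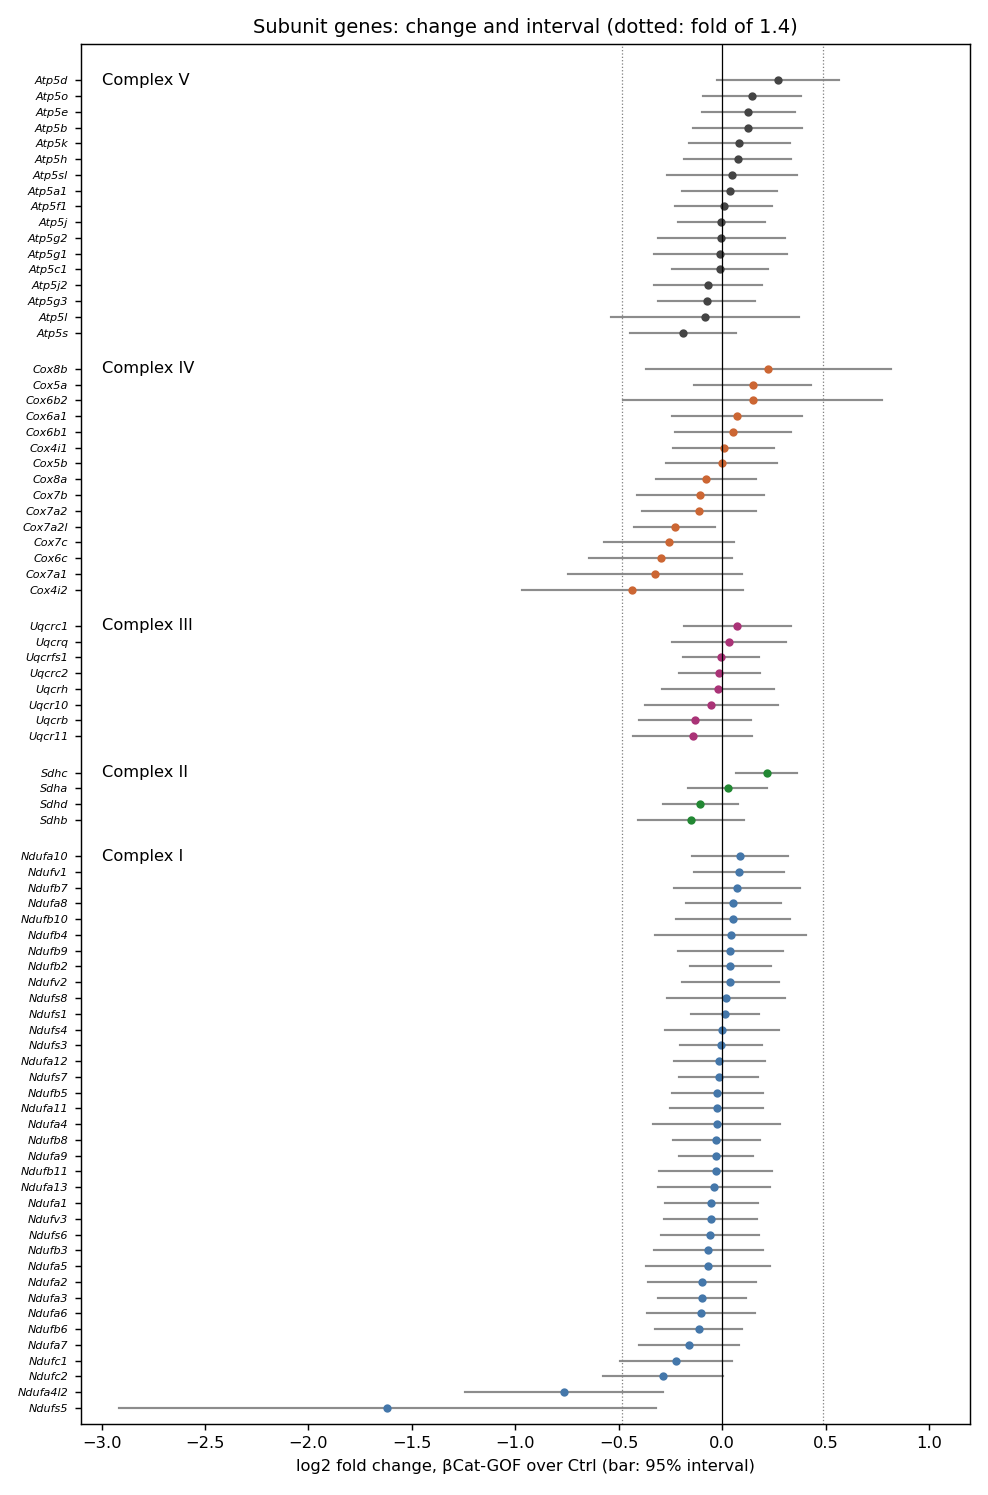
Log2 fold change (βCat-GOF over Ctrl, x axis) of the subunit genes reported here (y axis, by complex), with points for the estimate, bars for its 95% interval and dotted lines at a fold of 1.4. Most genes lie close to 0 with bars between the dotted lines, while *Ndufs5* and *Ndufa4l2* lie farthest to the left.

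The 5 complexes had medians close to that of all genes. The median log2 fold change was -0.03 in complex I, -0.04 in complex II, -0.02 in complex III, -0.08 in complex IV and 0.01 in complex V, and the sign of each of the 5 medians turned under at least 1 alternative. Over the 81 members it was -0.01, with 31 values above 0 and 50 below, beside a median of 0.00 over all 14953 genes. No member of complex III had an adjusted p below 0.590.

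The level of the complexes differed between mice of the same group. As a score, the median over a complex of log2(normalized count / mean of the 12 mice on the log scale) was taken in each mouse. In complex I the Ctrl scores ran from -0.28 in Ctrl 2 to 0.21 in Ctrl 3, and the βCat-GOF scores from -0.24 in GOF 1 to 0.20 in GOF 4. The ranges of the groups thus overlapped almost wholly. Over the 5 complexes the group means of the scores differed by -0.04 to 0.06, beside standard deviations of 0.09 to 0.27 within a group of 6.

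Complex III, whose *Uqcr* genes include the Rieske protein and both core proteins, had the widest range. Its scores ran from -0.34 to 0.18 in Ctrl and from -0.39 to 0.31 in βCat-GOF adrenals. Complex II had the narrowest, from -0.13 to 0.13 in Ctrl and from -0.19 to 0.20 in βCat-GOF adrenals. Complex IV scores ran from -0.33 to 0.16 and from -0.22 to 0.19, and complex V scores from -0.22 to 0.16 and from -0.26 to 0.26, in Ctrl and βCat-GOF adrenals, respectively. In each of the 5 complexes GOF 1 and GOF 2 were the lowest of the βCat-GOF mice. The labels of these mice share a stem, as do those of Ctrl 1 with Ctrl 2 and of Ctrl 3 with Ctrl 4, and do not say how such mice are related, so the low scores of GOF 1 and GOF 2 may not be independent of each other. In complexes I, III, IV and V, Ctrl 2 was the lowest Ctrl mouse, while in complex II it was Ctrl 5. GOF 1 and GOF 2 also had the lowest summed zF markers of all 12 mice (10822 and 13717 CPM, against 18233 to 26411 CPM in the other βCat-GOF mice) and the highest summed zG markers (3680 and 3181 CPM, against 1632 to 2575 CPM). Among Ctrl mice the zF sum ran from 16290 to 19919 CPM, with 16412 CPM in Ctrl 2. The part of the zones in these scores was not tested.

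Single genes followed the same mice. Ctrl 2 had the lowest normalized count of the 6 Ctrl mice in 55 of the 81 genes and GOF 1 the lowest of the βCat-GOF mice in 52, whereas Ctrl 1 was the highest Ctrl mouse in 42 genes and GOF 4 the highest βCat-GOF mouse in 43. All 81 genes together took 1.43% ± 0.103 of the counts in Ctrl and 1.38% ± 0.0943 in βCat-GOF mice (mean and SD of 6 mice per group). The standard deviation on the log2 scale was larger in βCat-GOF than in Ctrl mice for 69.1% of the members, beside 69.8% of all genes tested.

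**Figure D2:**
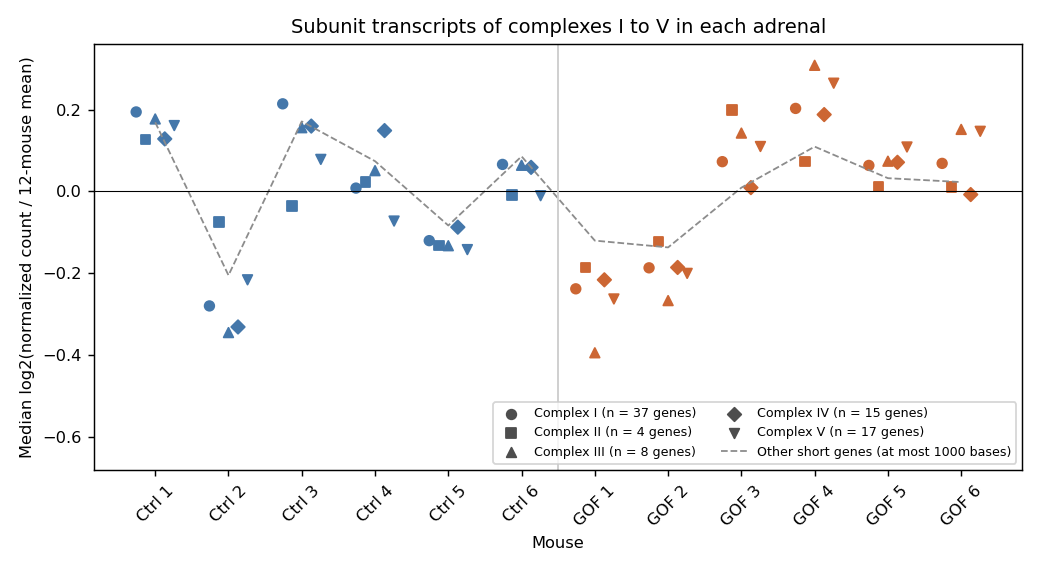
Score of each complex in each mouse (y axis, median of log2(normalized count / 12-mouse mean) over its genes), with 1 symbol per complex, Ctrl mice in blue and βCat-GOF mice in orange, and a dashed line for 931 other short genes. The complexes rise and fall together from mouse to mouse, with Ctrl 2, GOF 1 and GOF 2 low, and the dashed line follows the same mice over a narrower range.

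Other short transcripts moved with these mice. The longest coding transcript of a member had a median of 875 bases, beside 3091 bases for all genes tested. In the 931 tested genes with a transcript of at most 1000 bases that are not members, the score was -0.20 in Ctrl 2, -0.12 in GOF 1 and -0.14 in GOF 2, and 0.17 in both Ctrl 1 and Ctrl 3. In the 5005 genes over 4000 bases the sign was the opposite in these mice, with 0.09 in Ctrl 2 and -0.14 in GOF 4. The 75 cytosolic ribosomal protein genes, which have no part in respiration, had scores of -0.29 in Ctrl 2 and 0.30 in Ctrl 3. Among the members, the 47 of at most 1000 bases had a score of -0.33 in Ctrl 2 and the 34 longer ones had -0.13, whereas in GOF 1 these scores were -0.25 and -0.23. The part of transcript length in the spread between mice was not tested.

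Complex I receives electrons from NADH through the flavin-carrying subunit *Ndufv1* and the iron-sulfur subunit *Ndufs1*. Neither passed the test. *Ndufs1* ranged from 4829 to 5275 normalized counts in Ctrl (median 5032) and from 4403 to 5744 in βCat-GOF adrenals (median 5206), with a log2 fold change of 0.01 and a 95% interval from -0.15 to 0.18. The accessory subunit *Ndufa10* had 0.09 and *Ndufv1* 0.08, both with intervals that reach from below to above 0.

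The lowest value of complex I, and of all members, was that of *Ndufs5* (ENSMUSG00000028648, chr4:123712710-123718202 of GRCm38, minus strand), an accessory subunit that lies on the side of the complex facing the intermembrane space. Its reads have to be read beside those of *BC002163* (chr16:42955631-42955949, plus strand), a processed pseudogene. The 319 bases of *BC002163* align with the *Ndufs5* transcript without gaps at 317 positions of identity (99.4%). The 2 substitutions, T328C and A352G, counted from 1 at the 5′ end of the 680-base *Ndufs5* transcript and given as the *Ndufs5* base, position and *BC002163* base, both fall in the coding sequence. They are shown because reads without either position match both genes equally over this stretch, and the capital marks the base that differs.

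Ndufs5 around position 328: agaacagccctaTaagaacgccgct
BC002163 around position 328: agaacagccctaCaagaacgccgct
Ndufs5 around position 352: tcggtgccacgcAtttgaaaaagag
BC002163 around position 352: tcggtgccacgcGtttgaaaaagag

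*Ndufs5* had between 296 and 435 normalized counts in Ctrl mice (median 391). In βCat-GOF mice it had 7.16 in GOF 3 and 13.8 in GOF 5, and between 145 and 214 in the other 4. The groups did not overlap, which holds for this 1 member and for 2.78% of all genes tested. The log2 fold change was -1.62 (SE 0.60, 95% interval -2.92 to -0.32), with an unadjusted p of 0.0185 and an adjusted p of 0.161 in edgeR. Because the groups did not overlap, an exact permutation test could give only the smallest p that 6 against 6 mice allow (two-sided, p = 0.00216). The gene was named with its values known, so this p adds nothing to the lack of overlap.

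*BC002163* showed the reverse order. It had between 15.8 and 20.95 normalized counts in Ctrl mice and between 187 and 536 in βCat-GOF mice (log2 fold change 4.18, SE 0.29, edgeR adjusted p = 5.04e-06), with the highest values in GOF 5 (536) and GOF 3 (523), the same mice that had almost no *Ndufs5* counts. *Ndufs5* made up between 94.2% and 95.9% of the sum of both in each Ctrl mouse, 1.35% in GOF 3, 2.51% in GOF 5 and between 38.2% and 45.2% in the other 4 βCat-GOF mice. The sum of both ran from 314 to 453 in Ctrl and from 332 to 558 in βCat-GOF mice, so that the groups overlapped. With the copies of all members, except protein-coding genes, added to them before the fit, the log2 fold change of *Ndufs5* was 0.23 (SE 0.14, edgeR adjusted p = 0.381). The difference in *Ndufs5* counts is thus not present in the sum, and from which of these genes the reads came was not tested.

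**Figure D3:**
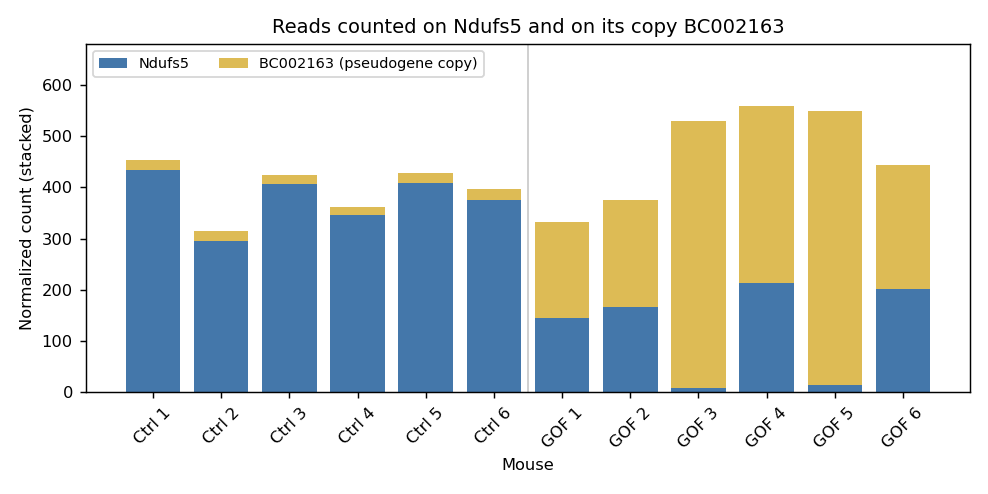
Normalized counts (y axis, stacked) on *Ndufs5* (blue) and on its pseudogene copy *BC002163* (yellow) in each of the 12 mice (x axis). The blue part is most of each Ctrl bar, a minority of 4 βCat-GOF bars and almost nothing in GOF 3 and GOF 5, whereas the whole bars overlap between the groups.

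*Ndufa4l2* (chr10:127514967-127517154, plus strand) had the next lowest value. It is a relative of *Ndufa4* that is known to be induced by hypoxia. It ranged from 543 to 1496 normalized counts in Ctrl (median 891) and from 423 to 723 in βCat-GOF adrenals (median 584). The lowest Ctrl mouse, Ctrl 1, lay within the βCat-GOF range and the other 5 lay above it. The log2 fold change was -0.77 (SE 0.22, edgeR adjusted p = 0.0781), and DESeq2 gave -0.76 with an adjusted p of 0.0161. *Ndufa4* itself had a log2 fold change of -0.03, with an interval from -0.33 to 0.28.

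Within each group, the markers of the medulla, the chromaffin tissue at the centre of the gland and 1 of several marker lists, moved with *Ndufa4l2*. The order of the 6 Ctrl mice was the same for both, from Ctrl 1 (543 normalized counts of *Ndufa4l2* and 3907 CPM of 8 medulla markers in sum) to Ctrl 3 (1496 and 12419 CPM). Among βCat-GOF mice GOF 4 was the highest in both (723 and 9036 CPM) and GOF 5 and GOF 6 the lowest 2 (423 and 459 normalized counts, 4915 and 4796 CPM). Between mice of near-equal medulla sums, *Ndufa4l2* was lower in the βCat-GOF mouse. GOF 4 had 723 normalized counts beside 968 in Ctrl 5 (9017 CPM). GOF 1 (7520 CPM) had 671 beside 813 in Ctrl 6 (7695 CPM). Of the medulla markers 0 of 8 passed the test, with a median log2 fold change of -0.35. Summed pericyte markers, a list added after values had been seen, ranged from 148 to 173 CPM in Ctrl and from 93.2 to 146 CPM in βCat-GOF adrenals. Of these markers 0 of 8 passed the test, with 2 log2 fold changes above 0 and 6 below. Their order over the mice was not that of *Ndufa4l2*. The highest Ctrl sum was in Ctrl 2 (173 CPM) and the lowest βCat-GOF sum in GOF 3 (93.2 CPM). The part of either cell type in the *Ndufa4l2* counts was not tested.

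The other low values of complex I were those of *Ndufc2* (-0.29, SE 0.14, edgeR adjusted p = 0.255) and *Ndufc1* (-0.22, SE 0.13, edgeR adjusted p = 0.345), both accessory subunits of the membrane arm. *Ndufc2* ranged from 1563 to 2880 normalized counts in Ctrl and from 1677 to 2178 in βCat-GOF adrenals, so that all βCat-GOF mice lay within the Ctrl range.

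Complex II has only 4 subunits, and none passed edgeR's test. *Sdhc*, 1 of the 2 membrane anchors, had the largest value, a log2 fold change of 0.21 (SE 0.07, 95% interval 0.07 to 0.36, edgeR adjusted p = 0.104). It ranged from 2222 to 2553 normalized counts in Ctrl (median 2321) and from 2551 to 3092 in βCat-GOF adrenals (median 2712). Only the lowest βCat-GOF mouse and the highest Ctrl mouse overlapped, by less than 2 counts, and DESeq2 called the gene with a log2 fold change of 0.22 and an adjusted p of 0.0229.

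The other anchor, *Sdhd*, had a log2 fold change of -0.11 (interval -0.29 to 0.08). The iron-sulfur subunit *Sdhb* had -0.15 (interval -0.41 to 0.10) and the flavoprotein *Sdha* 0.03 (interval -0.17 to 0.22). *Sdha* had between 13478 and 16080 normalized counts in Ctrl and between 12938 and 16701 in βCat-GOF adrenals, and the βCat-GOF range contained the Ctrl range.

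In complex III, the core proteins *Uqcrc1* and *Uqcrc2* and the Rieske iron-sulfur protein *Uqcrfs1* had log2 fold changes of 0.07, -0.01 and -0.01, with standard errors of 0.12, 0.09 and 0.09. *Uqcrc1* ranged from 4165 to 5329 normalized counts in Ctrl and from 3689 to 6242 in βCat-GOF adrenals, with GOF 1 and GOF 2 below every Ctrl mouse and the other 4 above the Ctrl median. The lowest values were those of the small subunits *Uqcr11* (-0.14, SE 0.13) and *Uqcrb* (-0.13, SE 0.13), and the second highest that of *Uqcrq* (0.03, SE 0.13).

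Complex IV exists with alternative subunits, some of them typical of muscle, lung or testis. Per length, the main forms dominated in Ctrl adrenals, with *Cox4i1* at 476 CPM per kb of its longest coding transcript against 3.95 for *Cox4i2*, *Cox6b1* at 354 against 2.98 for *Cox6b2*, *Cox7a2* at 239 against 24.5 for *Cox7a1*, and *Cox8a* at 362 against 30.2 for *Cox8b*. *Cox6a1* stood at 489 CPM per kb, while *Cox6a2* (mean 8.75 counts), *Cox7b2* (0.250) and *Cox8c* (0.0833) fell below the minimum of 10. Of the minor forms that were tested, each had an interval that reached beyond a fold of 1.4.

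The largest negative value of complex IV was that of *Cox4i2*, the oxygen-responsive form of *Cox4i1*, at -0.43 (SE 0.25, 95% interval -0.97 to 0.10, edgeR adjusted p = 0.352). It had between 42.2 and 80.9 normalized counts in Ctrl and between 26.6 and 63.4 in βCat-GOF adrenals. Ctrl 3 and Ctrl 4, the mice with the most medulla marker counts, lay above every βCat-GOF mouse, while the other 4 Ctrl mice lay within the βCat-GOF range. Among βCat-GOF mice *Cox4i2* did not follow the medulla. GOF 2 was the highest (63.4, with 7018 CPM of medulla markers), whereas GOF 4, with the most (9036 CPM), had 45.9. The part of the medulla in these counts was not tested. *Cox4i1* had a log2 fold change of 0.01, with an interval from -0.24 to 0.25.

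*Cox7a1*, the form known from heart and skeletal muscle, had a log2 fold change of -0.32 (SE 0.20, edgeR adjusted p = 0.380). Its counts ran from 138 to 313 in Ctrl and from 169 to 216 in βCat-GOF adrenals, which lay inside the Ctrl range. *Cox7a2* had -0.11 (SE 0.13). *Cox7a2l*, which takes part in joining complexes III and IV into supercomplexes, had -0.23 (SE 0.09, edgeR unadjusted p = 0.0241, adjusted p = 0.177), with 1279 to 1804 normalized counts in Ctrl and 1157 to 1509 in βCat-GOF adrenals. A processed pseudogene on chromosome 12, *Gm6969*, is identical to 17.8% of the *Cox7a2l* transcript, and with copies added the log2 fold change was -0.10 (SE 0.10, edgeR adjusted p = 0.597).

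Among the other subunits of complex IV, *Cox6c* had -0.30 (SE 0.16), *Cox5a* 0.15 (SE 0.13), *Cox5b* 0.00 and *Cox7b* -0.11 (SE 0.14). *Cox6c* ranged from 2165 to 5258 normalized counts in Ctrl and from 2483 to 3138 in βCat-GOF adrenals, so that the βCat-GOF mice lay inside the Ctrl range. *Cox8b*, which is also a marker of brown fat, had the highest value, 0.22 (SE 0.28), with 137 to 342 normalized counts in Ctrl and 135 to 380 in βCat-GOF adrenals. The other 3 brown fat markers (*Ucp1*, *Cidea* and *Elovl3*) summed to between 0.506 and 6.05 CPM in Ctrl and between 1.39 and 17.3 CPM in βCat-GOF adrenals. Of the βCat-GOF mice GOF 5 and GOF 3 were the highest both in that sum (17.3 and 15.2 CPM) and in *Cox8b* (18.4 and 17.0 CPM), whereas Ctrl 4, at 17.5 CPM of *Cox8b*, had a sum of 3.21 CPM. The part of brown fat in these counts was not tested. *Cox6b2* had 0.15 (SE 0.29).

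**Figure D4:**
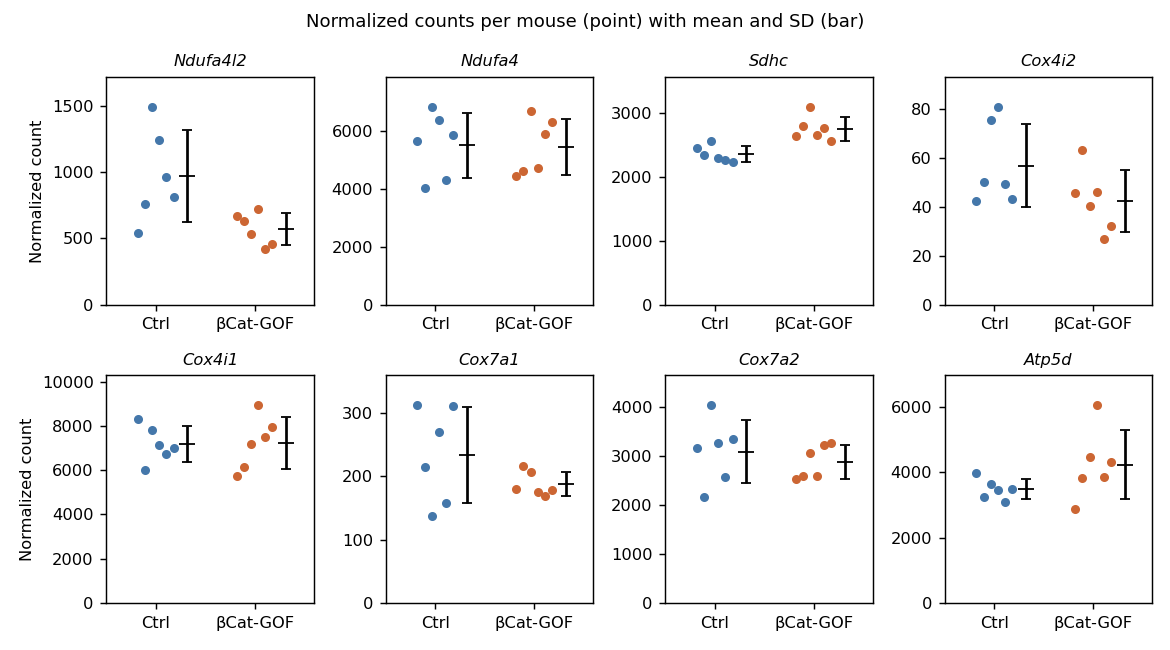
Normalized counts (y axes, from 0) of 8 subunit genes in each mouse (points, Ctrl in blue and βCat-GOF in orange), with the mean and SD of each group of 6 in black. For *Ndufa4l2* 5 of 6 Ctrl mice lie above all βCat-GOF mice and for *Sdhc* the groups barely touch, whereas for *Ndufa4*, *Cox4i1*, *Cox7a2* and the other genes they overlap widely.

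*Atp5b* (the catalytic β subunit of complex V) had the highest level per length of all members, 785 CPM per kb in Ctrl, and *Atp5a1* (the α subunit) stood at 479. Of the 3 genes for the c subunit of the rotating ring, *Atp5g3* stood at 542, *Atp5g2* at 29.7 and *Atp5g1* at 15.4. The longest coding transcript of *Atp5g1* is 4715 bases long, so its level per kb is a low estimate if shorter transcripts are the ones expressed.

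*Atp5b* ranged from 27583 to 34141 normalized counts in Ctrl (median 28685) and from 24206 to 37809 in βCat-GOF adrenals (median 34480), with a log2 fold change of 0.12 (SE 0.12, 95% interval -0.14 to 0.38). GOF 1 and GOF 2 lay below every Ctrl mouse, 3 βCat-GOF mice lay above every Ctrl mouse and the remaining 1 lay within the Ctrl range. *Atp5a1* had 0.04 (interval -0.19 to 0.27). The c subunit genes *Atp5g1*, *Atp5g2* and *Atp5g3* had -0.01, -0.01 and -0.08, with standard errors of 0.15, 0.14 and 0.11.

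The highest value of complex V, and of all members, was that of *Atp5d*, the δ subunit of the central stalk, at 0.27 (SE 0.14, 95% interval -0.03 to 0.57, edgeR adjusted p = 0.290). It had between 3084 and 3974 normalized counts in Ctrl and between 2865 and 6051 in βCat-GOF adrenals. GOF 4 was the highest and GOF 1, below every Ctrl mouse, the lowest. *Atp5o*, which links the stator to the catalytic head, had 0.14 (SE 0.11), but other genes' exons cover 47.9% of its own, and reads of overlapping genes are not known to be separated. *Atp5s* had the lowest value, -0.19 (SE 0.12). *Atp5l* was counted at a mean of only 29.4 reads per mouse and has 10 annotated near-identical copies, so its log2 fold change of -0.08 (SE 0.21) covers only the reads that map to it alone.

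For 24 of the 81 members the annotation holds at least 1 copy of 95% identity or more over 10% or more of the transcript. The matches of *Ndufc1*, counted among the 24, are to protein-coding genes such as *Zc3hc1*, over 10.0% to 10.4% of its transcript. Copies that are protein-coding genes are left out of what follows. Besides *Ndufs5* and *Cox7a2l*, 2 members have a copy that is not a protein-coding gene with a mean of at least 50 counts. *Gm15920* (chr5:130188395-130188796), a processed copy of *Ndufa12*, had 255 and 250 normalized counts in Ctrl 1 and Ctrl 4, between 2.29 and 7.50 in the other 4 Ctrl mice and between 197 and 574 in βCat-GOF mice, where GOF 3 and GOF 5 were again the highest. *Ndufa12* overlapped widely, with 808 to 1140 in Ctrl and 785 to 1088 in βCat-GOF adrenals, and a log2 fold change of -0.01 (SE 0.10). With the copy summed in, *Ndufa12* had 811 to 1317 in Ctrl and 982 to 1593 in βCat-GOF adrenals. The log2 fold change was then 0.32 (SE 0.14, edgeR adjusted p = 0.210). The value thus depends on whether the counts on the copy are added, and from which gene those reads came was not tested. The noncoding transcript *4930481A15Rik*, which matches 43.8% of the length of *Uqcr10* at 95.8% identity, was lower in βCat-GOF adrenals (15.2 to 56.4) than in Ctrl (57.8 to 212), with a log2 fold change of -2.04 (SE 0.39) and an adjusted p of 0.0109 in edgeR, whereas *Uqcr10* had -0.05 (SE 0.15) alone and -0.09 (SE 0.15) with that transcript summed in.

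The complexes also hold 13 subunits encoded by mitochondrial DNA. Of these genes, 7 were tested and none passed, with a median log2 fold change of -0.13. *mt-Co1*, the catalytic core of complex IV, had -0.17 (interval -0.53 to 0.20) and *mt-Cytb* of complex III had -0.13 (interval -0.46 to 0.21). *mt-Nd5* of complex I had the lowest value, -0.37 (SE 0.16, edgeR adjusted p = 0.204). The other 6 genes (*mt-Nd3*, *mt-Nd4l*, *mt-Co2*, *mt-Co3*, *mt-Atp6* and *mt-Atp8*) had at most 4 counts in any mouse, although *mt-Nd1* had at least 100542, and only uniquely mapping reads had been counted. For 5 of them, all but *mt-Atp8*, an annotated pseudogene on chromosome 1 covers at least 98.99% of the gene at an identity of 99.7% or more. No level of these 6 transcripts can be given. Of the tested genes, *mt-Nd4* also has a pseudogene on chromosome 1, over 63.6% of its length at 100% identity. Another there covers 31.3% of *mt-Co1* at 99.8%, and reads from such stretches may not have been counted. The 13 genes together took 5.66% ± 0.911 of the counts in Ctrl and 5.04% ± 0.799 in βCat-GOF mice (mean and SD of 6 mice per group). This share rests almost wholly on the 7 tested genes and is not the level of all 13. The lowest share was in GOF 4 (3.88%), which had the highest score of the βCat-GOF mice in all nuclear-encoded complexes but II.

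No gene of the companion lists passed edgeR's test with all 12 mice. Of 46 assembly factors tested, 0 passed, with a median log2 fold change of -0.04. Of 75 mitochondrial ribosomal proteins 0 passed (median 0.01), and likewise 0 of 13 enzymes of the TCA cycle (median 0.06), 0 of 6 nuclear subunits and carriers outside the symbol rule (median 0.04), 0 of 75 cytosolic ribosomal proteins (median -0.06) and 0 of 7 genes of mitochondrial steroid synthesis (median -0.02). Within that last list *Fdx1*, the ferredoxin that carries electrons to the mitochondrial P450 enzymes, had 0.77 (interval 0.22 to 1.32, edgeR adjusted p = 0.120), and *Star*, which brings cholesterol to the inner membrane, had 0.49 (interval 0.09 to 0.88, edgeR adjusted p = 0.166). DESeq2 called *Fdx1* (0.79, adjusted p = 0.0358), and without GOF 1 edgeR called both, with 0.96 (adjusted p = 0.00350) for *Fdx1* and 0.61 (adjusted p = 0.0298) for *Star*. Of 18 regulators of mitochondrial genes and mitochondrial DNA 0 passed (median -0.03). *Gabpb1*, a subunit of an ETS-family factor known to act on promoters of respiratory genes, had the smallest adjusted p of that list, 0.0640, with a log2 fold change of 0.41 (SE 0.11). *Nrf1* had 0.19 (SE 0.09), *Tfam* 0.02 (SE 0.08) and *Ppargc1a* 0.46 (SE 0.22, edgeR adjusted p = 0.255), the last at a mean of 39.2 normalized counts in Ctrl and 54.3 in βCat-GOF adrenals.

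A minority of the promoters held either of the motifs searched, which the symbol rule did not use. RefSeq promoters (GRCm38.p6, 250 bases before to 50 after the start) were listed for 66 members. The core of the NRF1 site, GCGCA and GCGC with any 1 base between them, searched on both strands, was in 16 of them (24.2%), against 4.78% of 27025 promoters. The ETS core CCGGAAG, searched on both strands without regard to overlap with the other motif, was in 15 (22.7%), against 9.12%. A match in these letters is a description of the sequence and not a site of binding. The stretches of *Ndufs5*, *Atp5h*, *Ndufb4* and *Cox6a1* below show the NRF1 core in capitals with 25 bases on each side. They are the stretches among the 16 promoters into which no annotated exon reaches.

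Ndufs5, chr4:123718250-123718309, minus strand: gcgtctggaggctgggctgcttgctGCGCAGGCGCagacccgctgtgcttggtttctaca
Atp5h, chr11:115420026-115420085, minus strand: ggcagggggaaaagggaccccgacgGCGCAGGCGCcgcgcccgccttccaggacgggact
Ndufb4, chr16:37654525-37654584, minus strand: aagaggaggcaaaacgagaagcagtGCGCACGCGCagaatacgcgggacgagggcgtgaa
Cox6a1, chr5:115349041-115349100, minus strand: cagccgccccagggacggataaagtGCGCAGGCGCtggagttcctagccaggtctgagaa

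Of these 4 genes *Atp5h* had a log2 fold change of 0.07 (SE 0.12), *Ndufb4* 0.04 (SE 0.17) and *Cox6a1* 0.07 (SE 0.15), beside the -1.62 of *Ndufs5* given above.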

How the data were processed

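Per the study's methods, the authors removed adapters (cutadapt), mapped reads to mm10 (STAR) and assigned those that mapped once to genes (featureCounts 1.4.4). The deposited counts of 39017 genes are not normalized. The annotation release and the use of strand are not given in the sources used here. The second deposited file holds a signal, the same counts after division by 1 factor per library, and served here for gene symbols. The number of columns left unmapped was 0. Members and lists were chosen with earlier results of these data known.

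All genes were tested with edgeR 4.0.16 in R 4.3.3 (TMM, filterByExpr, robust quasi-likelihood fit, two-sided, Benjamini-Hochberg adjustment over 14953 genes), and DESeq2 1.42.0 was an alternative. Normalized counts are counts divided by DESeq2's size factors. Scores per mouse used log2(normalized count + 0.5). Levels per length are CPM per kb of the longest coding transcript. GENCODE M21 (GRCm38, the assembly of mm10) gave the positions of 37693 identifiers, their exons and transcripts, and copies came from blastn 2.17.0 (95% identity or more, over 10% or more of the longest coding transcript). Promoters came from RefSeq, in which 79 members were matched. Scripts were tested on simulated counts. Figures used matplotlib 3.10.9.

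Library totals set the precision of each count, and intervals cover the spread between the 6 mice of each group. The mice are 1 library each, and 3 pairs of labels share a stem. The values of 1 member are not reported here, though it stays in the counts and medians. Genes named are the 2 highest and 2 lowest members of each complex, core subunits, subunit families with alternative forms, *Ndufs5* with *BC002163*, and listed genes past the threshold. *Ndufc1*, *Gm6969*, *Gm15920*, *4930481A15Rik*, the genes named for a promoter match and the listed genes named below the threshold were chosen after their values were seen. Alternatives were DESeq2, its size factors, upper-quartile factors, 2 other filters on low counts (none, and 10 counts in every mouse), an offset for length and GC, 1 surrogate variable (sva 3.50.0), copies summed, subsets of mice and an adjusted p under 0.01. Summing copies over 10% or more of the transcript (protein-coding genes left out) and the fit without the robust option were chosen after seeing the data.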

Additional observations from a re-analysis of the deposited data

Results flagged for a closer look

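A mouse far from the others of its group (Dixon's test of the gap to the nearest value, 5 complex scores and 81 genes in each group, 172 groups of 6 in all) was found 4 times, where chance gives about 1 in 20. The flags are thus fewer than that rate gives over 172 groups. *Ndufb7* was highest in GOF 4, at 2480 normalized counts. *Ndufv1* was highest in Ctrl 1, at 3550. *Uqcrfs1* was lowest in Ctrl 5, at 2925. *Cox6c* was lowest in GOF 4, at 2483, the mouse that had the highest score of the βCat-GOF group in complex IV.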

How the results depend on the processing

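All 120 medians of single complexes under the alternatives that refit the genes moved by less than 1 SD of the scores between mice. Leaving out 1 mouse gave ranges of -0.08 to 0.03 in complex I, -0.07 to 0.00 in complex II, -0.07 to 0.04 in complex III, -0.14 to 0.01 in complex IV and -0.02 to 0.07 in complex V. The other alternatives spanned -0.12 to 0.09, -0.12 to 0.03, -0.13 to 0.10, -0.15 to 0.05 and -0.08 to 0.12, with the low end from the surrogate variable and the high end from leaving out the repeated stems. Of 999 values of the 40 named members, 956 moved by less than their standard error without a change of call, 39 moved by more, 4 became calls and 0 reversed as calls.

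With DESeq2, 675 genes were higher and 569 lower in place of 312 and 220, with 1 member higher (*Sdhc*), 1 lower (*Ndufa4l2*), 1 past the study's cut-offs and 3 genes of the companion lists (*Gabpb1*, *Fdx1* and *Cox10*, all higher). Without the mice whose label repeats a stem, 367 genes were lower, 1 member was lower and past the cut-offs (*Ndufa4l2*, -0.78, edgeR adjusted p = 0.0353), and 1 companion gene was higher (*Fdx1*). With 1 surrogate variable *Ndufa4l2* had -0.46 and an adjusted p of 0.312 in edgeR. The offset for length and GC gave 2 companion genes (*Gabpb1* and *Cox10*). Without the mouse of another number 126 genes were lower. At an adjusted p under 0.01, 112 genes were higher and 44 lower. Leaving out 1 mouse gave 200 (without Ctrl 6) to 547 (without GOF 1) genes higher and 95 (without GOF 6) to 386 (without GOF 1) lower, with more than a 1.5-fold move of the lower count also without Ctrl 4 (128), Ctrl 5 (129), Ctrl 6 (99), GOF 2 (137), GOF 3 (139) or GOF 5 (126). It gave 0 to 1 members lower and past the cut-offs (1 without Ctrl 1, *Ndufa4l2*, -0.88, edgeR adjusted p = 0.0262) and 0 to 4 companion genes. The 4 without GOF 1 were *Gabpb1*, *Star*, *Fdx1* and *Cox10*, and the 1 without GOF 4 was *Gabpb1*. The cause of these changes was not tested. No paired analysis was possible because the labels give no replicate numbers shared by the groups.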
